A study of Mus musculus with 18 samples.

Results

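Homeostatic microglia genes are the transcripts that mark the resting immune cell of the brain. The 10 followed here are P2ry12, P2ry13, Gpr34, Cx3cr1, Csf1r, Siglech, Tmem119, Olfml3, Sall1 and Aif1. They were taken as a named list, chosen with earlier results of these data known. Every probe set that the platform annotation assigns to 1 of these symbols alone was used. The list gave 14 probe sets of 45101 on the array: 3 for Csf1r, 2 each for Cx3cr1 and Sall1, and 1 for each other gene. All 14 passed the filter on low signal, which kept 27022 probe sets.

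Expression was measured in mouse hippocampus, the brain region needed for spatial memory, with 1 Affymetrix array per sample and 18 samples in all. They fall into 3 groups of 6: aged samples called impaired in spatial memory, aged samples called unimpaired, and young samples, which the labels also call unimpaired. No genetic change or treatment is named for any group, and the sources used here give no age, strain, sex, scan date or batch. The study set good against poor spatial memory. Nothing in the labels ties a sample to its own animal, so p-values reflect only how far these samples differ, which may include technical spread.

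Microglia are the resident macrophages of brain tissue. In the resting state they extend branched processes that survey their surroundings, and they sense nucleotides, chemokines and growth factors released by neurons and other cells through the receptors named above. When microglia respond to injury, protein deposits or myelin debris, resting-state transcripts such as P2ry12 and Tmem119 are known to decline while genes such as Clec7a, Cst7 and Trem2 are induced. These are statements of background, and the arrays measured whole tissue, in which more cells of a type and more RNA per cell cannot be told apart.

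The hippocampal origin of the samples is taken from their titles. All 9 hippocampal and neuronal markers examined passed the filter, including Prox1 of dentate granule cells and Wfs1 of CA1 pyramidal cells. Markers of other brain regions were not examined, so this count does not show the origin. Of the genes that separate border macrophages from microglia, 8 of 12 passed the filter. Of these, 0 rose or fell against young, in either aged group or in both together. Their summed scaled signal ran from 766 to 1447 in aged impaired, 803 to 1438 in aged unimpaired and 932 to 1531 in young samples. None of those markers was at 0 in all samples, and Mrc1 averaged 7.14 ± 0.61, 7.16 ± 0.46 and 7.54 ± 0.23 on the log2 scale in those 3 groups (SD, n = 6 each). Of the 8 tested, 2 had a higher mean in both aged groups together than in young, beside 6294 of 13121 named genes. Ms4a7 was 1 of these, with a difference of 0.53 and a standard error of 0.35. Lyve1 and Cd163 did not pass the filter. For monocytes and neutrophils, 4 of the 10 listed genes passed and none rose or fell against young. Sums ran from 267 to 573 in aged impaired, 296 to 1416 in aged unimpaired and 166 to 848 in young samples. Over all named genes 0.815% rose and 0.373% fell in both aged groups against young. The shares were 1.30% and 0.594% in aged impaired, and 0.114% and 0.0305% in aged unimpaired samples. With shares this low, 0 of 8 and 0 of 4 do not show that these cells were unchanged.

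Start-site sequence from RefSeq (build GRCm38.p6) covered 7 of the 10 genes in 9 windows, each running from 250 bases before to 50 bases after a transcript start. Tmem119, Csf1r and Gpr34 had no entry. Windows are printed for Aif1, the member with the lowest adjusted p between aged and young samples, for P2ry12, whose signal was level between them, and for P2ry13, the neighbouring receptor gene. Capitals mark the letters GAGGAA, the core bound by PU.1, read on either strand (TTCCTC on the opposite strand), and the sequences run 5′ to 3′ on the gene's strand, which is the minus strand for all of them. The Aif1 window lies at chr17:35176003-35176302, that of P2ry12 at chr3:59262936-59263235 and that of P2ry13 at chr3:59210833-59211132.
Aif1: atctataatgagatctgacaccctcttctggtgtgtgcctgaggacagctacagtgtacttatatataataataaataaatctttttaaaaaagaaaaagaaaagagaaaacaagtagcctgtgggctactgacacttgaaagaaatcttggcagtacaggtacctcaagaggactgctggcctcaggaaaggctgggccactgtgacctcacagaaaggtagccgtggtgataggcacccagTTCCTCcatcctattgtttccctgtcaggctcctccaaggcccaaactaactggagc
P2ry12: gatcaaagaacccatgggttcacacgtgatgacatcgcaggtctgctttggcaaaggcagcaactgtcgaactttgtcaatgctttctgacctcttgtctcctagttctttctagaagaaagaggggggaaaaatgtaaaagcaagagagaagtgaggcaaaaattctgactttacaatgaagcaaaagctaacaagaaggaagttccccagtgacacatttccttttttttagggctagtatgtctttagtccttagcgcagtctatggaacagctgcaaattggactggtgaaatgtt
P2ry13: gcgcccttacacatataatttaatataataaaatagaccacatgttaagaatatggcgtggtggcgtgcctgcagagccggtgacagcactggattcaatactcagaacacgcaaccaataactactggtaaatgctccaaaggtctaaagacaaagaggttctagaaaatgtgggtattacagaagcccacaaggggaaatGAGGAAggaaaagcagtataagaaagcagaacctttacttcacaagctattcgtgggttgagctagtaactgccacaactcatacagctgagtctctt

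The GAGGAA core occurred in 3 of the 9 windows, those of Aif1, Siglech and P2ry13, against 28.3% of 32851 windows of the same length over all genes. In Aif1 it occupied bases 244 to 249 of the window, and in P2ry13 bases 203 to 208. An interferon regulatory factor pattern, GAAA and GAAA with any 2 letters between them on either strand, occurred in the Aif1 window at bases 94 to 103 and in 1 of the 9 windows in all, against 3.44% of all windows. The letters CTA and TAG with any 4 letters between them occurred in the Cx3cr1 window alone, against 3.69% of all windows. This pattern is looser than the MEF2 site, so neither value counts MEF2 sites. The P2ry12 window held none of these letters, which says nothing about the factors themselves. No pattern overlapped another.

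Signals below are on the scale log2(scaled signal + 16), where each array was scaled to the same trimmed mean. Fold changes on this scale understate the change of dim probe sets. The 3 values given for a group are the lowest, median and highest of its 6 samples, and levels of different probe sets are not compared with each other. Differences carry a standard error from limma's moderated test, which was fitted to all 18 samples and all 27022 probe sets, with p-values adjusted by Benjamini-Hochberg and a threshold of 0.05. The 2 comparisons of an aged group with young use the same 6 young samples. The mean of myelin genes was also set against that of presynaptic genes in each sample. The first minus the second was -1.28 ± 0.07 in aged impaired, -1.56 ± 0.12 in aged unimpaired and -1.61 ± 0.21 in young samples (SD, n = 6 each). Tissue makeup and RNA per cell cannot be told apart in this difference. A fit with this myelin minus presynaptic difference as a covariate is called the myelin covariate below. Where it changed the sign or call of a member, its value is given with the result or in the closing section. No such values are given for genes outside the list or for members relative to other genes, so their dependence on it is not shown. Because the covariate was highest in the aged impaired group, its part and that of the group cannot be told apart fully.

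Among the receptors for nucleotides, P2ry12, which draws microglial processes toward ATP and ADP, had the smallest difference of the members between both aged groups and young. Its probe set, 1431724_a_at, gave 9.37, 9.64 and 9.99 in aged impaired samples, 9.63, 9.87 and 10.06 in aged unimpaired samples, and 9.43, 9.83 and 9.93 in young samples. The groups overlapped throughout, with both the lowest sample of all and one of the higher ones in the aged impaired group. Between both aged groups and young the fold was 1.00 (95% confidence interval 0.869 to 1.15), an interval that leaves room for changes of either sign up to those bounds. Aged impaired samples differed from aged unimpaired samples by -0.15 ± 0.11 and from young samples by -0.08 ± 0.11, neither past the threshold.

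P2ry13, a receptor for ADP encoded beside P2ry12, gave 8.44, 8.79 and 8.98 in aged impaired, 8.61, 8.74 and 8.98 in aged unimpaired and 8.39, 8.61 and 8.67 in young samples. In each aged group 4 of 6 samples lay above every young sample, and the rest fell within the young range. The difference between both aged groups and young was 0.17 ± 0.08 (adjusted p = 0.374 by limma). Gpr34, a receptor for lysophosphatidylserine from the same branch of the receptor family, gave 7.69, 7.84 and 8.28 in aged impaired, 7.84, 7.98 and 8.47 in aged unimpaired and 7.42, 7.83 and 8.04 in young samples. Its groups overlapped, and both aged groups against young gave 0.19 ± 0.11 (adjusted p = 0.484 by limma). That difference was 0.39 with the myelin covariate and 0.12 without young sample 4.

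Cx3cr1 is the receptor for fractalkine, the chemokine Cx3cl1 that neurons present to microglia. Its brighter probe set gave 9.53, 9.91 and 10.12 in aged impaired, 9.21, 9.59 and 9.99 in aged unimpaired and 8.67, 9.40 and 9.85 in young samples. The aged impaired median was the highest of the 3, the ranges overlapped, and young samples had the widest spread, with an SD of 0.45. The difference between aged impaired and young was 0.55 ± 0.19, a fold of 1.47 (95% confidence interval 1.12 to 1.93), with an adjusted p of 0.145 by limma. With the myelin covariate that difference changed sign, to -0.039 (adjusted p = 0.963 by limma), and in both aged groups against young it moved to 0.083, against 0.42 without it. The second Cx3cr1 probe set gave a smaller difference of 0.20 ± 0.17 in aged impaired against young, 0.0034 with the myelin covariate, and the pair correlated at r = 0.56 over the 18 samples.

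Csf1r, the receptor for the growth factors Csf1 and Il34 on which microglia depend for survival, rose in aged impaired samples on its brightest probe set. That probe set, 1419872_at, gave 12.29, 12.34 and 12.58 in aged impaired, 12.19, 12.24 and 12.47 in aged unimpaired and 11.99, 12.13 and 12.19 in young samples. All 6 aged impaired samples lay above all 6 young samples, while 5 of 6 aged unimpaired samples did. The aged impaired difference from young was 0.29 ± 0.07, a fold of 1.23 (95% confidence interval 1.11 to 1.35, adjusted p = 0.0360 by limma). In aged unimpaired samples the difference from young was 0.18 ± 0.07 (adjusted p = 0.475 by limma), and the step between the aged groups was 0.12 ± 0.07 (adjusted p = 0.695 by limma).

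The other Csf1r probe sets pointed the same way without passing the threshold. They differed between aged impaired and young by 0.26 ± 0.11 and 0.19 ± 0.09, with adjusted p-values of 0.263 and 0.327 by limma, and the smaller of these differences was 0.040 with the myelin covariate. Correlations among the 3 Csf1r probe sets over the 18 samples were 0.70 to 0.85. The call on the brightest probe set was lost when aged impaired sample 2, 3, 4 or 6 or young sample 1, 2, 3, 5 or 6 was left out, with adjusted p-values from 0.0526 to 0.0833, and its difference then ran from 0.26 to 0.31. With the myelin covariate it was also lost, at 0.19 (adjusted p = 0.503 by limma).

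Siglech, a sialic acid binding receptor, gave 8.34, 8.50 and 8.89 in aged impaired, 8.04, 8.41 and 8.62 in aged unimpaired and 7.54, 8.15 and 8.74 in young samples. The young samples spanned nearly the whole range of the other groups. The aged impaired difference from young was 0.38 ± 0.16 and did not pass the threshold (adjusted p = 0.266 by limma). It was 0.13 with the myelin covariate and 0.24 without young sample 1.

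**Figure D1:**
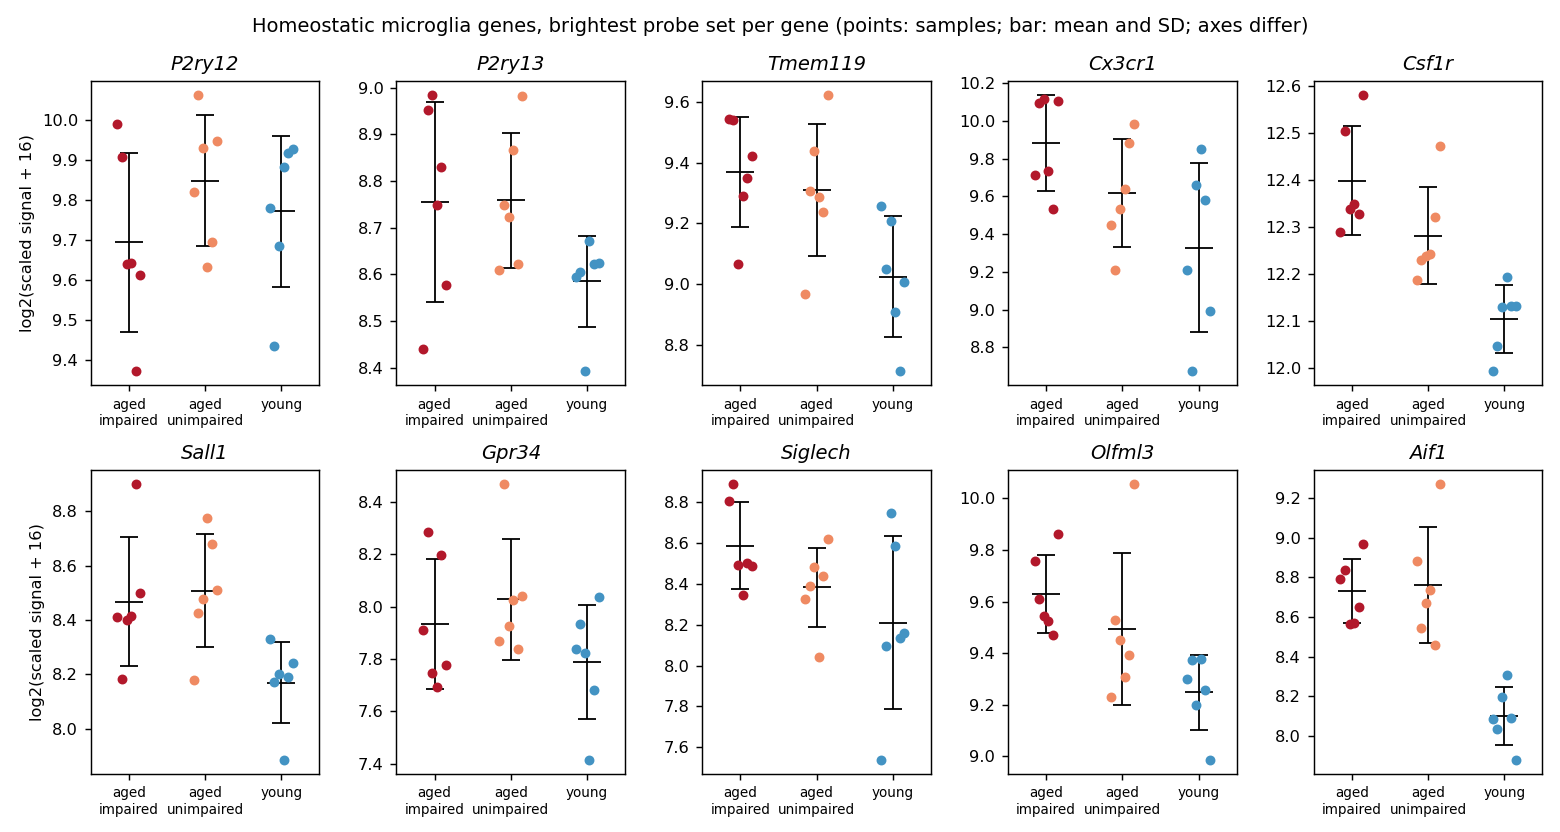
Each panel plots 1 gene by its brightest probe set, with log2(scaled signal + 16) on the y axis, 1 point per sample, and a bar for the mean and SD of each group of 6; axes differ between panels. The Aif1 points of both aged groups, from 8.46 to 9.27, lie above all young points, which end at 8.31, while the P2ry12 points of the 3 groups overlap.

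Tmem119 encodes a membrane protein used to tell microglia from blood-derived macrophages. It gave 9.06, 9.39 and 9.55 in aged impaired, 8.97, 9.30 and 9.62 in aged unimpaired and 8.71, 9.03 and 9.26 in young samples. Of the 12 aged samples 9 exceeded every young one, although the ranges overlapped at their edges. Both aged groups against young gave 0.32 ± 0.10 (fold 1.24, 95% confidence interval 1.08 to 1.44), which did not pass (adjusted p = 0.155 by limma).

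Olfml3, a secreted protein of the olfactomedin family, gave 9.47, 9.58 and 9.86 in aged impaired, 9.23, 9.42 and 10.06 in aged unimpaired and 8.99, 9.28 and 9.38 in young samples. Every aged impaired sample was above every young sample, whereas the aged unimpaired group reached into the young range and also held the single highest sample, its sample 6. The aged impaired difference from young was 0.38 ± 0.12 (fold 1.30, adjusted p = 0.118 by limma), and 0.23 with the myelin covariate. Without aged unimpaired sample 6 the same difference had an adjusted p of 0.0334 by limma; that sample enters this comparison only through the shared estimate of the spread.

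Sall1, the transcription factor that maintains microglial identity, had probe sets that did not track each other (r = -0.08 over 18 samples). The brighter gave 8.18, 8.41 and 8.90 in aged impaired, 8.18, 8.49 and 8.77 in aged unimpaired and 7.88, 8.19 and 8.33 in young samples. In each aged group 5 of 6 samples lay above the young range. Both aged groups against young gave 0.32 ± 0.10 on this probe set (adjusted p = 0.156 by limma), and 0.27 ± 0.20 on the dimmer one, whose young samples alone ran from 5.55 to 7.23. The dimmer probe set's difference ran from 0.092 without young sample 1 to 0.43 without young sample 3, and was 0.13 with the myelin covariate and 0.16 with an offset of 64.

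Aif1 encodes the calcium and actin binding protein known as Iba1, the usual stain for microglia and other macrophages. It was the only member to rise in each comparison with young. Its probe set, 1418204_s_at, gave 8.57, 8.72 and 8.97 in aged impaired, 8.46, 8.70 and 9.27 in aged unimpaired and 7.88, 8.09 and 8.31 in young samples. All 12 aged samples lay above all 6 young samples, and the aged groups overlapped each other. Aged impaired samples exceeded young by 0.63 ± 0.12 (fold 1.55, 95% confidence interval 1.30 to 1.84, adjusted p = 0.0112 by limma), and aged unimpaired samples exceeded young by 0.66 ± 0.12 (fold 1.58, 95% confidence interval 1.33 to 1.88, adjusted p = 0.0330 by limma).

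Both aged groups together exceeded young in Aif1 by 0.65 ± 0.10, a fold of 1.57 (adjusted p = 0.00423 by limma). With the myelin covariate Aif1 lost its call in aged impaired against young, at 0.41 (adjusted p = 0.381 by limma), and in both aged groups against young, at 0.52 (adjusted p = 0.0670 by limma). It kept its call in aged unimpaired against young, at 0.63 (adjusted p = 0.0290 by limma). The aged groups differed from each other by -0.03 ± 0.12, with a 95% confidence interval of the fold from 0.823 to 1.17. The call in aged unimpaired samples was lost without aged unimpaired sample 1, 3 or 4 or young sample 1, 2, 5 or 6 (adjusted p from 0.0630 to 0.0979 by limma), while the difference stayed between 0.62 and 0.68. The suffix s_at in the probe set name marks probes shared by more than 1 transcript.

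Set against memory status, none of the members separated the aged groups. Between aged impaired and aged unimpaired samples 0 of 14 probe sets passed limma's adjusted threshold, against 0.0111% of all tested probe sets, and 0 of 14 reached an unadjusted p under 0.05, against 8.09%. The groups failed to overlap in 0 of 14, against 0.525% of all. Differences ran from -0.15 for P2ry12 to 0.27 for the brighter Cx3cr1 probe set, with 9 of 14 positive against 51.8% of all probe sets. With the myelin covariate that Cx3cr1 difference was -0.24. Standard errors of 0.07 to 0.23 set the size of difference that 6 samples a group could show.

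In aged unimpaired against young samples 1 of 14 passed, Aif1, against 0.137% of all tested probe sets. The groups did not overlap in 1 of 14, again Aif1, against 0.766%. An unadjusted p under 0.05 was reached by 4 of 14, against 8.19%, and 14 of 14 had the higher mean in aged unimpaired samples, against 45.8%. In aged impaired against young samples 2 of 14 passed, Aif1 and the brightest Csf1r probe set, against 1.63% of all. There 3 of 14 did not overlap, with Olfml3 added, against 2.01%. An unadjusted p under 0.05 was reached by 8 of 14, against 15.8%, and 13 of 14 had the higher mean in aged impaired samples, against 47.5%. With both aged groups against young, 1 of 14 passed, against 0.947%, and 1 of 14 did not overlap, against 0.303%.

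Most members sat a little higher in aged tissue without passing the threshold one by one. Of the 14 probe sets, 13 had a higher mean in both aged groups than in young, against 45.8% of all tested probe sets, and 7 had an unadjusted p under 0.05, against 13.4%. The median difference of the 14 was 0.25, beside -0.01 over all tested probe sets. The 14 probe sets come from the same 18 samples and are not independent. These counts describe the list, which was chosen with earlier results of these data known, and do not test it.

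**Figure D2:**
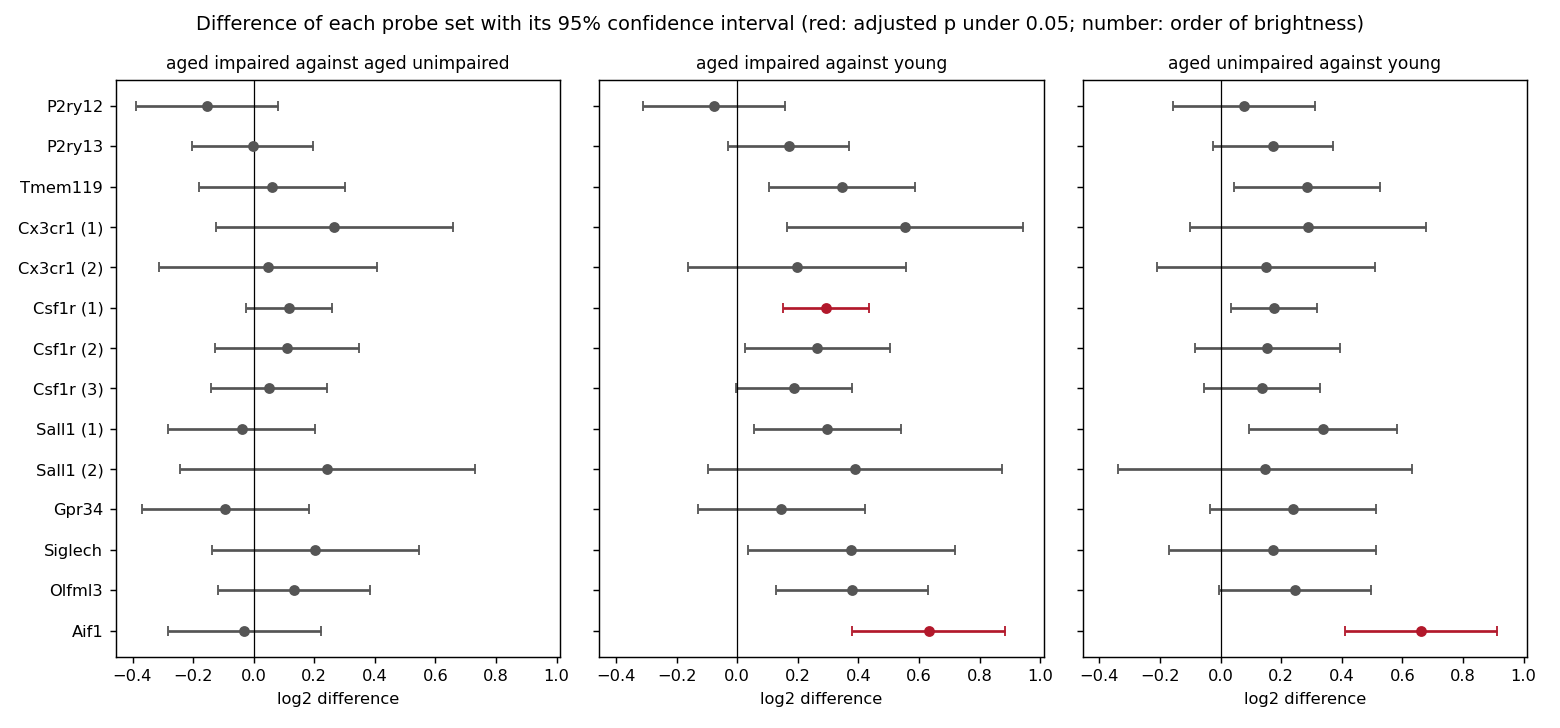
Each row is a probe set, with numbers after a name giving the order of brightness, and each panel is 1 comparison; the x axis is the log2 difference, points are estimates and bars their 95% confidence intervals. Red marks an adjusted p under 0.05: 0 probe sets in aged impaired against aged unimpaired, Aif1 and the brightest Csf1r in aged impaired against young, and Aif1 in aged unimpaired against young.

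The members were then set beside 7 other genes that microglia express in resting and in activated states: the complement subunits C1qa, C1qb and C1qc, the protease Ctss, the adaptors Tyrobp and Fcer1g, and the lysosomal membrane protein Laptm5. These genes were chosen with earlier results of these data known. All 7 rose in both aged groups against young, by 0.52 to 0.82, while 107 of 13121 named genes rose. All 7 rose in aged impaired samples against young, where 171 of 13121 named genes rose. Each gene is read by its brightest probe set. For Laptm5, 1 of 4 tested probe sets went the other way in that comparison. In aged unimpaired samples against young 2 rose, C1qb and Fcer1g, where 15 of 13121 named genes rose. Between the aged groups 0 of 7 passed, beside 1 of 13121 named genes. There all 7 had the higher mean in aged impaired samples, with a median difference of 0.21. Tyrobp, for example, rose by 0.79 ± 0.12 in both aged groups against young (adjusted p = 0.00355 by limma).

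Per sample, the mean of the 10 members minus the mean of these 7 genes was -1.71 ± 0.16 in aged impaired, -1.54 ± 0.10 in aged unimpaired and -1.20 ± 0.06 in young samples (SD, n = 6 each). Only differences between groups in this quantity can be read, since the probe sets differ in brightness. The 12 aged samples lay between -1.95 and -1.44 and the 6 young samples between -1.27 and -1.10, so they did not overlap. The members' own mean was 9.34 ± 0.09, 9.30 ± 0.13 and 9.03 ± 0.07 in those groups, and that of the 7 genes 11.05 ± 0.24, 10.84 ± 0.22 and 10.24 ± 0.11. Both means were thus higher in aged samples, and the gap between them was wider there.

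Member by member, the relative difference between both aged groups and young was -0.71 for P2ry12, -0.54 for P2ry13, -0.52 for Gpr34, -0.48 for Csf1r and -0.44 for Siglech. It was -0.40 for Olfml3 and Tmem119, -0.39 for Sall1, -0.29 for Cx3cr1 and -0.06 for Aif1, with a median of -0.42. P2ry12 relative to the 7 genes was -1.36 ± 0.23 in aged impaired, -0.99 ± 0.24 in aged unimpaired and -0.47 ± 0.21 in young samples. In Csf1r and Olfml3 all 12 aged samples lay below all 6 young samples on this measure. The sign depended on the genes used for comparison: relative to 24 other homeostatic microglia genes, which averaged 0.23 higher in aged than in young samples, the members' median was 0.06. That second comparison was added after the data were seen. No test was applied to these values.

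**Figure D3:**
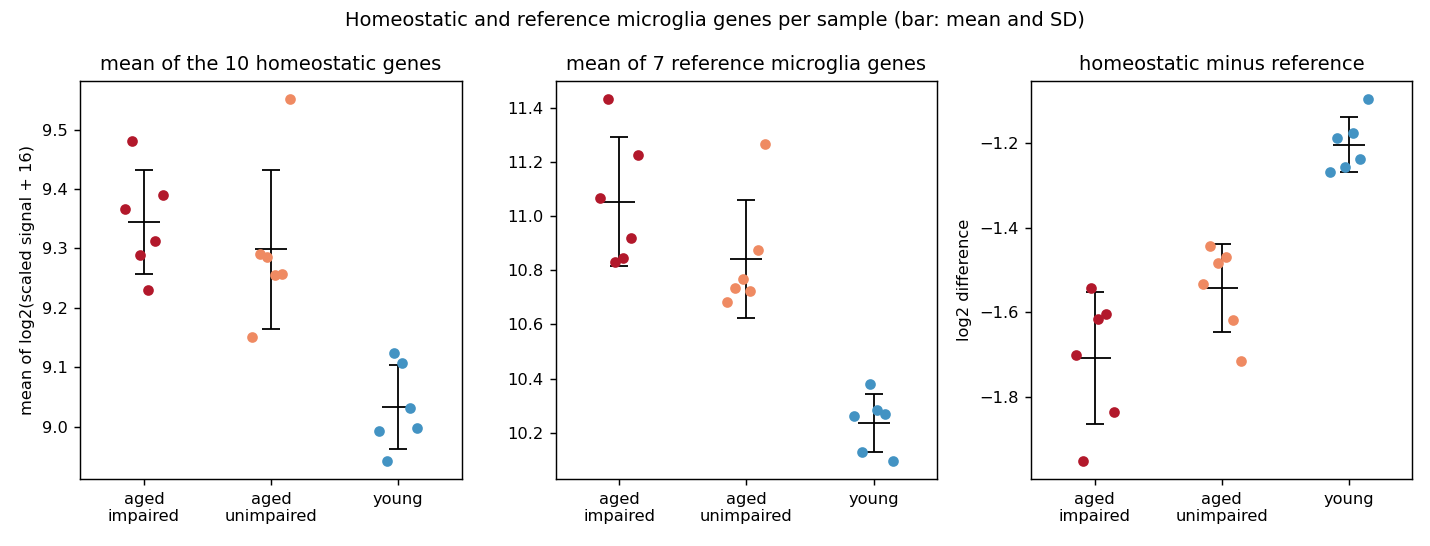
The panels plot, for each sample, the mean log2 signal of the 10 homeostatic genes, that of the 7 reference microglia genes, and the log2 difference of the 2 means, with bars for the mean and SD of each group of 6. The difference lies between -1.95 and -1.44 in aged samples and between -1.27 and -1.10 in young samples.

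Other genes of the resting state behaved unevenly. Of 25 tested, 2 rose and 0 fell in both aged groups against young, with a median difference of 0.16. Cd33, an inhibitory sialic acid receptor, rose by 0.98 ± 0.17 (adjusted p = 0.00828 by limma). Ctss, already counted among the 7 reference genes, rose by 0.64 ± 0.11 (adjusted p = 0.00833 by limma). Of all named genes 0.815% rose and 0.373% fell in the same comparison. Itgam, an integrin subunit, gave 0.43 ± 0.12 and Lag3 gave 1.12 ± 0.31, neither past the threshold. Among 16 tested relatives of the member families 1 rose and 0 fell, again Cd33, and P2ry6, a UDP receptor, gave 0.38 ± 0.17.

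Of 18 tested genes that signal to microglia, 0 rose or fell in both aged groups against young, with a median of 0.01. For the ligands of the member receptors, Csf1 gave 0.45 ± 0.13 (adjusted p = 0.106 by limma), Il34 -0.20 ± 0.09 and Cx3cl1 -0.12 ± 0.05, both with an adjusted p of 0.332 by limma. In aged impaired against young samples 1 of the 18 rose, Itgav, beside 1.30% of all named genes. Itgav encodes an integrin subunit that takes part in activating TGF-beta, and it rose by 0.36 ± 0.09 (adjusted p = 0.0469 by limma). Of 13 tested microglial transcription factors 0 rose or fell in both aged groups against young, with a median difference of 0.12. Over all named genes 0.815% rose and 0.373% fell. The mean was higher in aged samples for 8 of 13, beside 6294 of 13121 named genes. Irf8 gave 0.29 ± 0.13 and Bhlhe41 -0.35 ± 0.16.

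Genes of activated microglia had a larger median difference between ages than the members, a contrast given as a description. This list, too, was chosen with earlier results of these data known. In both aged groups against young 7 of 19 rose and 0 fell, beside 0.815% and 0.373% of all named genes. The median difference was 0.77, beside 0.29 for the 10 members by their brightest probe sets and -0.01 over all named genes. Clec7a, a pattern recognition receptor, rose by 2.34 ± 0.34 (adjusted p = 0.00191 by limma), and Cst7, a cystatin, by 2.27 ± 0.34 (adjusted p = 0.00244 by limma). Trem2, a lipid receptor, rose by 1.13 ± 0.19, and Gpnmb, a lysosomal glycoprotein, by 0.96 ± 0.16. In aged impaired samples 9 of 19 rose against young and in aged unimpaired samples 1, Clec7a, beside 1.30% and 0.114% of all named genes in those comparisons. Between the aged groups 0 of 19 passed the threshold, beside 1 of 13121 named genes. The mean was higher in aged impaired than in aged unimpaired samples for 18 of 19, beside 6860 of 13121 named genes. The median difference was 0.30, and 0.0067 over all named genes.

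**Figure D4:**
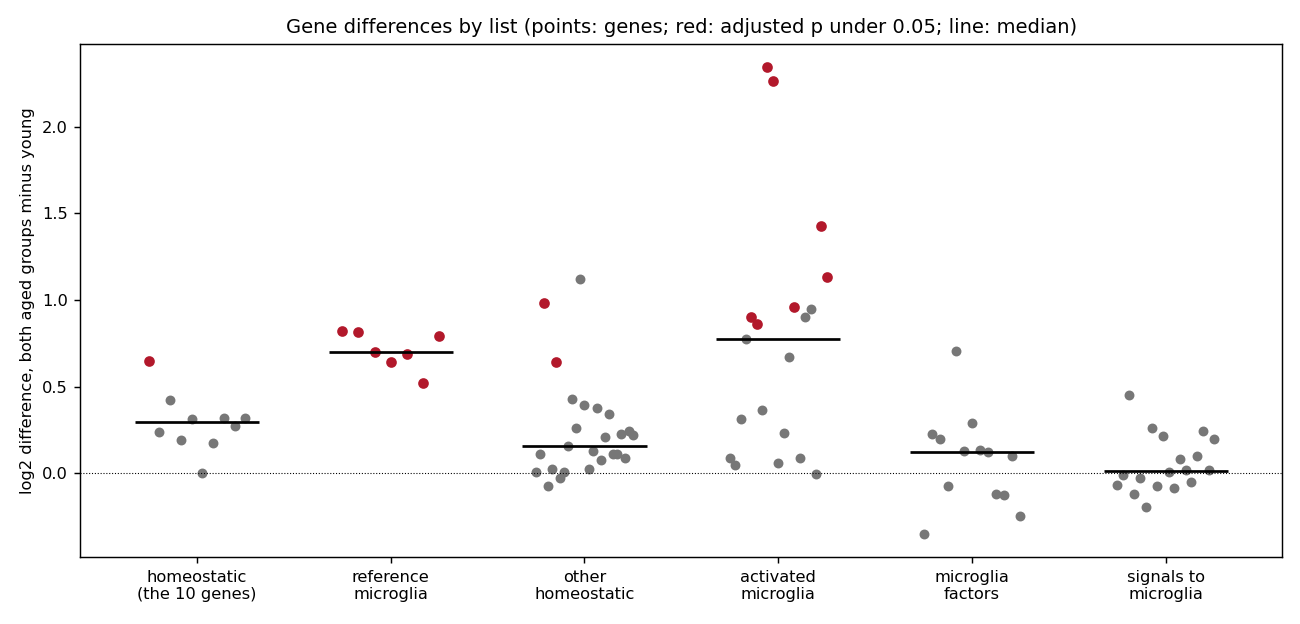
Points are genes, grouped by list on the x axis, with the log2 difference between both aged groups and young on the y axis; red points had an adjusted p under 0.05 and lines are list medians. The median is 0.29 for the 10 homeostatic genes, 0.70 for the 7 reference genes and 0.77 for the activated genes.

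Within groups the members did not move as a block. Over deviations from group means in 18 samples, the 45 pairs of member genes had a median r of 0.18, with 30 pairs above 0. The range ran from -0.56 for P2ry12 with Sall1 to 0.70 for Olfml3 with Aif1, and Cx3cr1 with Csf1r gave 0.64. These points share arrays and scaling and are given as a description.

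The genes outside the list whose signal was most like the members' mean over the 18 samples were C1qa, Ctss and C1qc, each with r = 0.96, then Mpeg1, C1qb and Gfap at 0.93, and Slamf9 and Tyrobp at 0.92. After group means were removed these r values were 0.77 to 0.87. Mpeg1 encodes a macrophage pore-forming protein, and Gfap is the intermediate filament of astrocytes. Gfap rose by 0.67 ± 0.12 in both aged groups against young (adjusted p = 0.0128 by limma). It was the only call among 6 astrocyte genes, whose median difference was 0.07, beside 0.815% of all named genes that rose. Of the others, Gja1 gave -0.11 ± 0.07, Aqp4 -0.10 ± 0.09 and Aldh1l1 0.11 ± 0.08 on their brightest probe sets. In each, 1 tested probe set had the opposite sign, of 6, 3 and 2.

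Single samples moved with some of these values. Aged unimpaired sample 6 was the highest of its group on 10 of 14 member probe sets, and it also had the group's highest mean of the 7 reference genes, 11.27, and of choroid plexus genes, 10.61. Choroid plexus genes averaged 9.56 ± 1.08 in the aged impaired group, 8.76 ± 1.46 in the aged unimpaired group and 9.57 ± 1.12 in the young group.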

How the data were processed

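The authors deposited 1 linear intensity per probe set and sample, produced by MAS5 (per the submitters' processing notes, without a version) from biotin-labelled total RNA (per the labels' protocols). The deposited arrays share a trimmed mean of 150 (2% trimmed at each end), so part of the scaling was done upstream. Each array was rescaled to a trimmed mean of 500, 16 was added and log2 taken. Of 45101 probe sets, 64 controls and the dimmest 40% of the rest by mean were left out, which kept 27022. Group means were fitted with limma 3.58.1 in R 4.3.3 over all 18 samples, 2-sided, with Benjamini-Hochberg adjustment over all tested probe sets; the code was tested on simulated data. Groups came from the sample titles. Arrays have no read depth, and the number of arrays limits the precision.

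The members and lists were chosen with earlier results of these data known. A gene with several probe sets is represented by its brightest; the platform annotation gives 34945 probe sets 1 symbol, 932 several and 9160 none. All member probe sets are named, with up to 4 genes of lowest p from each other list, the 8 genes most like the members' mean, and ligands, markers or genes behind a count where a result turns on them, chosen after their values were seen. Other scalings, offsets, filters, moderation, a number block, covariates of myelin minus presynaptic and of choroid plexus signal, and leaving out each sample were tried.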

Additional observations from a re-analysis of the deposited data

Results flagged for a closer look

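In 42 groups of 6 samples (14 probe sets in 3 groups), 4 samples stood apart from the rest of their group by Dixon's test, and chance alone gives about 1 in 20 groups. Olfml3 read 10.06 in aged unimpaired sample 6, above the other samples of that group, and Gpr34 read 8.47 in aged unimpaired sample 2. P2ry13 read 8.39 in young sample 3, and the brighter Sall1 probe set read 7.88 in young sample 4, each below the rest of the young group. No value was removed from the results for this reason.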

How the results depend on the processing

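Of 56 differences (14 probe sets in 4 comparisons), 44 kept their direction in every alternative run, and 37 of 1546 values changed sign. The count of member probe sets past the threshold in aged impaired against aged unimpaired samples was 0 in all 28 alternatives. In aged unimpaired against young it was 0, not 1, without the filter and with only the groups compared, and 0 to 1 with samples left out. In aged impaired against young it was 1, not 2, under quantile normalization, without the filter and with only the groups compared, 0 with the myelin minus presynaptic covariate, and 1 to 3 with samples left out. In both aged groups against young it was 2, not 1, with 60% of probe sets left out and with trended, robust moderation, where Csf1r was added, and 0 with that covariate. The causes were not tested.

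Samples with the same number correlated at -0.25 to 0.10 in their deviations from group means. Differently numbered samples were not set beside them, so this cannot decide whether the numbers pair samples. With the number as a replicate block the counts were 0 in aged unimpaired against young (Aif1 adjusted p = 0.0995 by limma) and 1 in aged impaired against young.

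Changes of sign in aged impaired against aged unimpaired came from the myelin covariate for Cx3cr1 (-0.24, second probe set -0.12), the third Csf1r probe set (-0.077), Gpr34 (0.21), Siglech (-0.0068) and the brighter Sall1 (0.043), and from the choroid plexus covariate for the second Cx3cr1 (-0.084) and the brighter Sall1 (0.044). Leaving samples out gave ranges that cross 0 for P2ry13 (-0.049 to 0.060), Tmem119 (-0.0092 to 0.12), the second Cx3cr1 (-0.077 to 0.15), the brighter Sall1 (-0.13 to 0.017) and Aif1 (-0.091 to 0.072). Elsewhere, Cx3cr1 in aged impaired against young gave -0.039 with the myelin covariate, the dimmer Sall1 in aged unimpaired against young -0.030 to 0.31 with samples left out, and P2ry12 in both aged groups against young 0.014 under quantile normalization, 0.028 with the choroid plexus covariate and -0.068 to 0.032 with samples left out.

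The members' median relative to the 7 reference genes, -0.42, ran from -0.46 to -0.40 with samples left out, and was 0.063 with other homeostatic genes as the reference; these alternatives were chosen after seeing the data.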
